A study of Homo sapiens with 6 samples.

Results

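The 10 genes described here mark hepatic progenitor cells and the epithelium of bile ducts: the keratins KRT7, KRT8, KRT18 and KRT19, the surface proteins EPCAM, PROM1 and CD24, the transcription factors SOX9 and SOX4, and the secreted protein SPP1. They were taken by name from the 23228 genes of the deposited tables, and all 10 were found there. RNA was sequenced from Hep3B, an established human hepatocellular carcinoma cell line. The series had 3 control libraries, from cells transduced with a non-targeting shRNA, and 3 libraries labelled PELP1-KD, from cells transduced with an shRNA against PELP1. Such hairpin RNAs direct the breakdown of mRNAs that match them. Both kinds of cells were made with lentiviral particles, the PELP1-KD cells were grown as pooled, puromycin-selected clones, and both carry a vector. The sample titles name the first PELP1 shRNA, whereas the treatment text names a pair of them. Nothing in the labels says whether the libraries of a group came from separate cultures, so p-values measure only the spread between these libraries, which may be technical.

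In the developing liver, bipotent hepatoblasts give rise to hepatocytes, which secrete plasma proteins, and to cholangiocytes, which line the bile ducts. Cholangiocytes and the progenitor cells that appear in injured liver carry KRT7, KRT19, EPCAM and SOX9, whereas KRT8 and KRT18 are made by hepatocytes as well as by duct cells. Keratins of type II (KRT7 and KRT8) pair with keratins of type I (KRT18 and KRT19) to build filaments. In liver tumors, KRT19, EPCAM, PROM1, CD24 and SPP1 are used as markers of progenitor-like tumor cells.

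Reads on genes numbered 26758363 to 34456542 per library. Of these reads, the 10 markers took between 0.707% and 0.722% in the control libraries and between 0.885% and 0.930% in the libraries labelled PELP1-KD. PELP1 RNA, the target of the shRNA, was at 94.5% of the control level (log2 fold change −0.08, standard error 0.04, edgeR adjusted p = 0.101). It passed the threshold as lower with the replicate number as a block (adjusted p = 0.0106) and without replicate 3 of PELP1-KD (adjusted p = 0.018). Libraries are therefore named by their labels. The study reported less PELP1 protein in its Hep3B cells with PELP1 shRNA, by Western blot. Protein is not measured by these libraries. All 8 hepatocyte markers were present in every library, with ALB (albumin) at 4891 RPKM (reads on a gene scaled by its exon length and by the library's reads on genes) in the control libraries. PTPRC, a marker of leukocytes, and CD3E, a marker of T cells, had at most 5 and 2 reads in a library. CDH5, a marker of endothelium, had 0 reads in all 6 libraries, where 3 reads is the limit that a count of 0 allows. DCN, a fibroblast marker, had at most 4 reads. Other members of the same marker lists did have reads. The immune markers CD68 and CD14 had 1427 to 2001 and 78 to 211 reads per library. The endothelial marker PECAM1 had 52 to 74, and the stromal markers LUM and COL1A1 had 305 to 656 and 74 to 222.

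The label of biliary and progenitor markers held only in part in these cells. Per length, KRT8 and KRT18 were the most abundant of the 10 in the control libraries, at 1916 ± 35.8 and 1180 ± 25.1 RPKM (SD, n = 3 each). KRT19 followed at 279 ± 8.19 and CD24 at 278 ± 7.38 RPKM (SD, n = 3 each), which did not differ beyond their spread. That spread does not cover the annotation of CD24 on chromosome Y, described below, which leaves its level uncertain. SOX4 was at 83.1 ± 1.18 and EPCAM at 73.2 ± 2.52 RPKM (SD, n = 3 each). PROM1 (38.7 ± 0.459) and SOX9 (37.6 ± 0.798) lay close to each other (SD, n = 3 each), and SPP1 was lower at 6.05 ± 0.402 RPKM (SD, n = 3). KRT7, a defining keratin of the duct epithelium, was nearly absent at 0.0755 ± 0.0248 RPKM (SD, n = 3). The biliary gene SCTR, which encodes the secretin receptor, had 0 reads in all 6 libraries, where 3 reads is again the limit that a count of 0 allows. The 10 genes are therefore called markers here only by name.

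**Figure D1:**
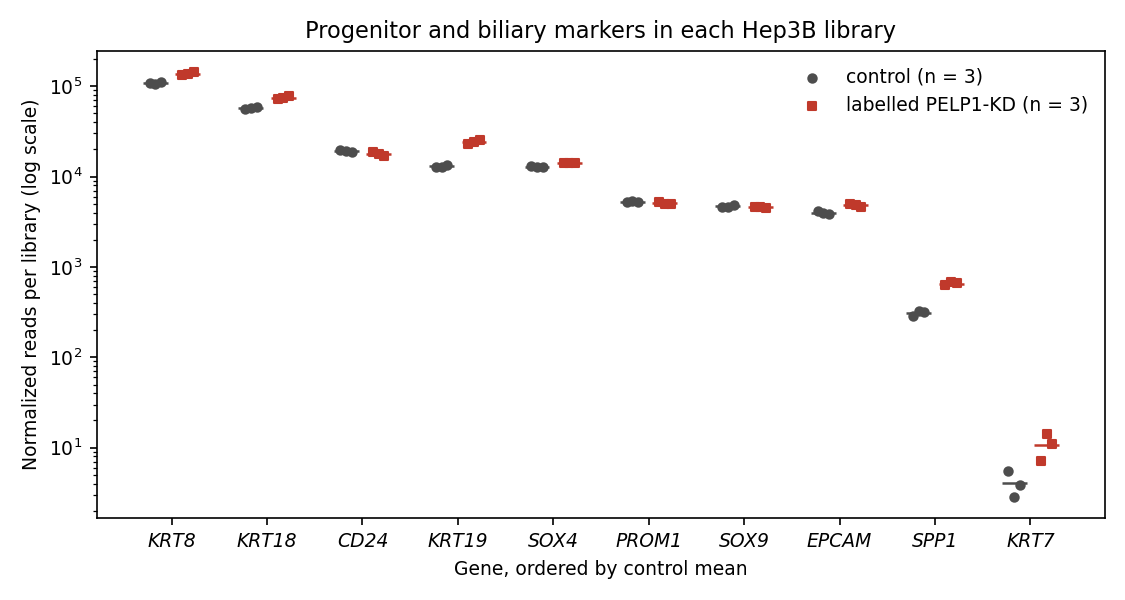
Normalized reads of the 10 markers (log scale) in each of the 3 control libraries (circles) and the 3 libraries labelled PELP1-KD (squares), with genes ordered by their control mean and a bar at each group mean. KRT8 is near 108776 reads and KRT7 near 4.06 in the control libraries, and KRT19 and SPP1 show the widest gaps between the groups among the tested genes.

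Control and PELP1-KD libraries were then compared to ask which of these markers differed. Of the 10, 6 were higher in the libraries labelled PELP1-KD, namely SPP1, KRT19, KRT18, KRT8, EPCAM and SOX4, and only SPP1 passed a 2-fold change. CD24 was lower, PROM1 and SOX9 were not called, and KRT7 had too few reads to be tested. The test was edgeR's quasi-likelihood test at an adjusted p below 0.05, and 9 of the 10 genes passed its filter on low counts. Over all 14537 tested genes, 53.6% were called by the same rule, 26.8% as higher and 26.8% as lower. Of all tested genes, 7.65% were called with at least a 2-fold change, and 2.85% were at least 2-fold higher. The groups did not overlap for 9 of the 10 genes, SOX9 being the exception. These 9 include KRT7, which was not tested, and PROM1, which was not called. Among all tested genes, the groups did not overlap for 58.8%. The markers were chosen with earlier results of these data known, so their count was not tested against the other genes. In RNA from bulk cells, a change in the number of cells that express a gene and a change in RNA per cell cannot be told apart.

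**Figure D2:**
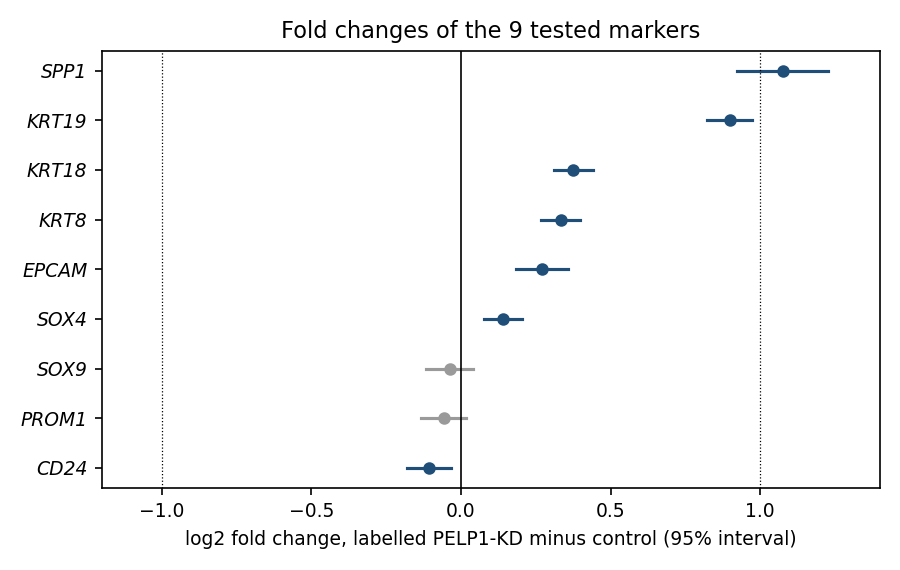
The log2 fold change (libraries labelled PELP1-KD minus control, n = 3 each) of the 9 tested markers from edgeR, with 95% intervals; blue points have an adjusted p below 0.05, grey points do not, and dotted lines mark a 2-fold change. SPP1 (1.08) and KRT19 (0.90) lie apart from the other 7, which range from −0.11 to 0.38.

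KRT8, the type II keratin of simple epithelia, has 8 exons on the minus strand of chromosome 12 (hg19, 53290971 to 53298868). It had 107983, 107033 and 111312 normalized reads in the 3 controls, against 131716, 135675 and 143764 under the PELP1-KD label. It was the 11th most abundant of all genes by reads in the control libraries. Each value labelled PELP1-KD was above each control value, and the mean was 1.26 times the control mean. The log2 fold change was 0.33 (SE 0.03; 95% confidence limits 0.27 and 0.40; edgeR adjusted p = 2.22e-08).

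KRT18, the type I partner of KRT8, is its neighbor on the plus strand (53342655 to 53346685, 8 exons). Between them lie 43786 bases that hold no other gene of the tables. KRT18 had 55925, 57306 and 58537 normalized reads in the 3 controls, against 71830, 73228 and 77804 under the PELP1-KD label, again without overlap. Its log2 fold change was 0.38 (SE 0.03; 95% confidence limits 0.31 and 0.44; edgeR adjusted p = 5.07e-09), close to that of KRT8. Both genes have many processed copies in the genome. In GRCh37, the same assembly as hg19, KRT18 matched 37 other loci and KRT8 matched 17 at an identity of at least 90% over at least 50% of their exon bases, all of them on annotated pseudogenes. At an identity of at least 95%, 2 loci remained for KRT18 and 1 for KRT8. The deposited counts share reads with several matches as fractions, so the levels of KRT8 and KRT18 are less certain than their exons alone would give. Entering the fractional counts without rounding left both calls in place, but this undoes only the rounding and does not test the shared reads.

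KRT19, a type I keratin without the usual tail domain and the best-known duct keratin of the liver, lies on chromosome 17 from 39679869 to 39684641 on the minus strand. Its control libraries held 12833, 12693 and 13457 normalized reads, and the libraries labelled PELP1-KD held 23066, 24122 and 25448. The groups were far apart, with a mean of 1.86 times the control mean. The log2 fold change was 0.90 (SE 0.04; 95% confidence limits 0.82 and 0.97; edgeR adjusted p = 7.68e-14), and 3.52% of the tested genes had a larger one. Its interval ended just below a 2-fold change. KRT19 had 1 other locus at 90% identity, a pseudogene on chromosome 6.

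KRT7, the type II keratin that accompanies KRT19 in bile ducts, lies on chromosome 12 from 52626954 to 52642709. It was counted 6, 3 and 4 times in the controls, against 7, 12 and 11 times under the PELP1-KD label, so all counts were low although the groups did not overlap. In total, 13 and 30 reads gave a ratio of 2.62 with a 95% exact binomial interval of 1.33 to 5.47, which covers counting error only. DESeq2 did not call it (log2 fold change 1.39, standard error 0.74, adjusted p = 0.124). Without a filter on low counts, edgeR gave 1.36 (standard error 0.57, adjusted p = 0.045).

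Because keratin chains are used in pairs, the balance between the types was also compared per length. The sum of KRT7 and KRT8 over the sum of KRT18 and KRT19, in RPKM, was 1.33, 1.30 and 1.31 in the controls, against 1.17, 1.18 and 1.18 under the PELP1-KD label. All control ratios lay above all others, a shift of −0.14 in the mean ratio (exact two-sided permutation p = 0.1, below which 3 against 3 cannot go). The sum of type I includes KRT19, whose rise is given above, so this shift is not a separate finding from that rise. The ratio of KRT8 to KRT18 alone was 1.62 ± 0.0270 and 1.58 ± 0.00844 (SD, n = 3 each; exact permutation p = 0.1). KRT19 relative to KRT18, both of type I, went from 0.237 ± 0.00494 to 0.340 ± 0.00447 (SD, n = 3 each; exact permutation p = 0.1). This ratio was added after both genes had been seen to differ, so its p is no independent test. KRT7 relative to KRT19 was 0.000270 ± 9.00e-05 and 0.000381 ± 0.000117 (SD, n = 3 each; exact permutation p = 0.2), with KRT7 near 0 throughout. The ratio of KRT19 to KRT18 thus moved by 1.44-fold and that of KRT8 to KRT18 by 0.971-fold. Together, KRT8, KRT18 and KRT19 took between 0.560% and 0.578% of all reads in the control libraries and between 0.730% and 0.784% in those labelled PELP1-KD.

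**Figure D3:**
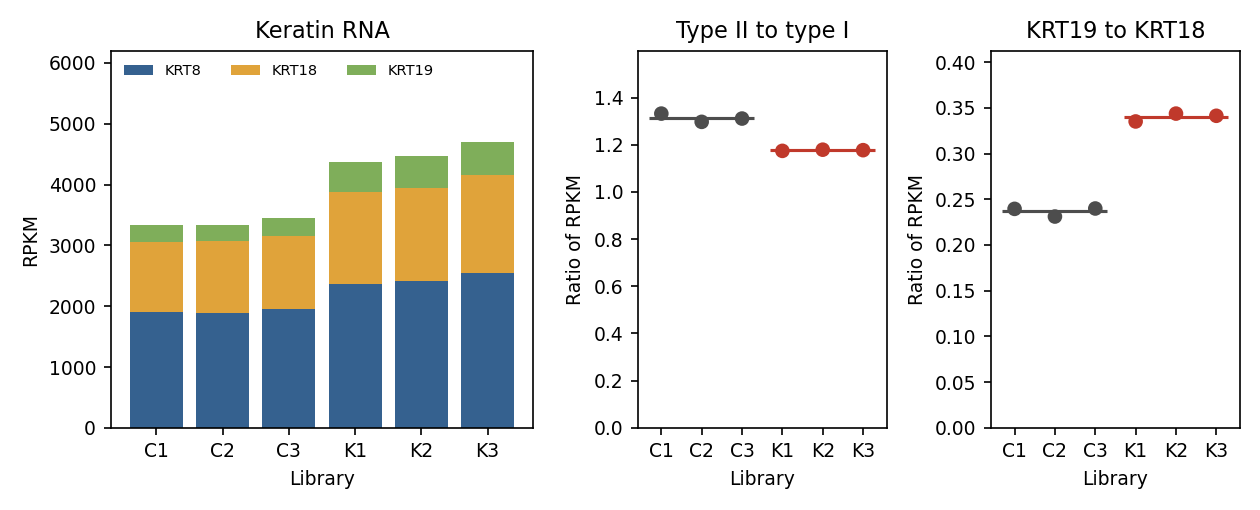
Left, stacked RPKM of KRT8, KRT18 and KRT19 in each control library (C1 to C3) and each library labelled PELP1-KD (K1 to K3); middle and right, the ratio of type II to type I keratins and of KRT19 to KRT18 in each library, with lines at the group means. Type II to type I moved from a mean of 1.31 to 1.18, and KRT19 to KRT18 moved from 0.237 to 0.340, without overlap. The ratio of KRT19 to KRT18 was added after the data were seen.

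Of the other keratin genes in the tables, 52 in number, 9 passed the filter on low counts and 21 had no read in any library. Of these 9, KRT15, KRT222, KRT80 and KRT10 were higher and KRT23 and KRT79 were lower, against 26.8% of all tested genes in each direction. The 9 genes had a median log2 fold change of 0.45 against 0.0044 over all tested genes. This median ranged from 0.16 to 0.80 over the alternative settings. KRT23, a type I keratin, had 2544 ± 53.4 normalized reads in control and 1705 ± 67.8 (SD, n = 3 each), which is a log2 fold change of −0.58 (SE 0.04, edgeR adjusted p = 1.24e-09). KRT15, known from basal and progenitor cells of other epithelia, was rare and went from 27.9 ± 8.41 to 73.3 ± 12.7 normalized reads (SD, n = 3 each; log2 fold change 1.38, edgeR adjusted p = 4.24e-05). KRT10 rose by 0.18 and KRT222 by 0.45 on the log2 scale. The duct marker KRT19 thus rose while KRT23 fell in the same libraries.

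The genes that tie keratin filaments to cell contacts and to the rest of the cytoskeleton were counted as a list of 10, all of which were tested. Of these, 7 were higher and 1 was lower, against 26.8% of all tested genes in each direction. Their median log2 fold change was 0.30, and the list was chosen with earlier results known. PKP3, a plakophilin of desmosomes, had the smallest p and went from 669 ± 47.7 to 1600 ± 74.4 normalized reads on average (SD, n = 3 each), which is a log2 fold change of 1.26 (SE 0.06, edgeR adjusted p = 6.14e-13). PKP2, another plakophilin, rose by 0.37 and PLEC, which encodes the linker plectin, by 0.39. PPL (periplakin) was the gene that fell, by 0.20 on the log2 scale (edgeR adjusted p = 0.0038). With the replicate block, 2 genes of the list were called lower, the second being FAM83H (log2 fold change −0.11, adjusted p = 0.001 with the block and 0.0632 without it).

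EPCAM, a cell adhesion molecule of epithelial progenitors, is encoded on chromosome 2 from 47596287 to 47614167 by 9 exons. It had 4128, 3925 and 3881 normalized reads in the 3 controls, against 4944, 4876 and 4585 under the PELP1-KD label. Every value labelled PELP1-KD exceeded every control value, by 1.21-fold in the mean. Its log2 fold change was 0.27 (SE 0.04; 95% confidence limits 0.19 and 0.36; edgeR adjusted p = 1.38e-05), and no other locus of GRCh37 matched it.

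EPCAM forms membrane complexes with claudin-7, tetraspanins and CD44, and its cut inner fragment acts with FHL2 and β-catenin. Of 9 such partner genes, all tested, 6 were higher and 1 was lower, against 26.8% of all tested genes in each direction. The median of their log2 fold changes was 0.48, and the list was chosen with earlier results known. CD9, a tetraspanin, changed most, from 66.1 ± 16.8 to 564 ± 7.69 normalized reads on average (SD, n = 3 each), which is a log2 fold change of 3.09 (SE 0.12, edgeR adjusted p = 2.31e-14). CD44, the hyaluronan receptor, went from 569 ± 29.0 to 1805 ± 76.3 (log2 fold change 1.67, edgeR adjusted p = 4.10e-15). These were the members of the list with more than a 3-fold change. CLDN7 rose by 1.17 on the log2 scale and CDH1, which encodes E-cadherin, rose from 7257 ± 24.5 to 13733 ± 107 normalized reads on average (SD, n = 3 each), which is a log2 fold change of 0.92. TSPAN8 rose by 0.48 and CTNNB1, which encodes β-catenin, by 0.24 on the log2 scale (edgeR adjusted p = 4.97e-07). Of the genes that cut EPCAM, ADAM17 was not called (0.07, edgeR adjusted p = 0.238). PSEN2 was called lower (−0.23, edgeR adjusted p = 0.038), a call that was lost by DESeq2, by scaling to library size alone and in 5 of the 6 fits without 1 library, all but that without replicate 1 of control, with an adjusted p of up to 0.19. FHL2 had a log2 fold change of −0.02 (adjusted p = 0.864).

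**Figure D4:**
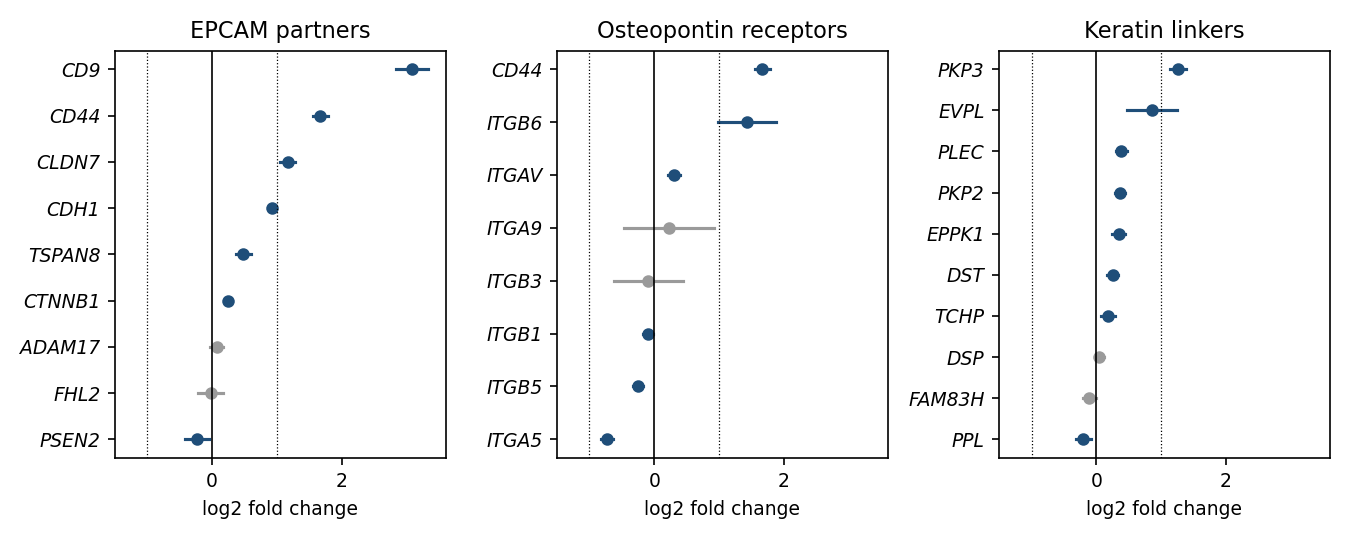
The log2 fold change (libraries labelled PELP1-KD minus control, n = 3 each, edgeR, 95% intervals) of tested genes that encode EPCAM partners, osteopontin receptors and keratin linkers; blue points have an adjusted p below 0.05, grey points do not, and dotted lines mark a 2-fold change. CD9 lies farthest to the right at 3.09, and CD44 is in both of the first 2 panels at 1.67.

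SPP1 encodes osteopontin, a secreted phosphoprotein that binds integrins and CD44 and is made by cholangiocytes in the liver. The gene lies on chromosome 4 from 88896802 to 88904563 on the plus strand, with 7 exons. It had 289, 330 and 314 normalized reads in the 3 controls, against 629, 673 and 663 under the PELP1-KD label. The lowest of the latter was well above the highest control value, and the mean was 2.11 times the control mean. The log2 fold change was 1.08 (SE 0.07; 95% confidence limits 0.92 and 1.23; edgeR adjusted p = 2.04e-10), so the interval includes a 2-fold change. SPP1 was the only tested marker past 2-fold, and 2.57% of tested genes had a larger log2 fold change. Per length it remained scarce, at 12.9 ± 0.407 RPKM (SD, n = 3) against 527 ± 22.1 for KRT19.

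Promoter sequences from RefSeq (GRCh38.p14) were matched by symbol for 5 of the 10 markers, namely KRT8, PROM1, SOX4, CD24 and SPP1. The entry for KRT8 begins far upstream of the gene's first exon in the deposited tables, so it was not used. Those of SPP1 and SOX4, the other markers with an entry that were higher, are shown as the 250 bases before the RefSeq start. This start is 64 bases inside the first exon of the tables for SPP1 and 10 bases inside it for SOX4. In the sequence of SPP1 (chr4:87975464-87975713, plus strand), capitals mark AACCACA, the core that RUNX factors recognize, at −143 to −137, the TATA-like TTTAAA at −30 to −25, and ACAAT, a core of SOX sites, at −77 to −73 and on the other strand at −206 and −177.
SPP1: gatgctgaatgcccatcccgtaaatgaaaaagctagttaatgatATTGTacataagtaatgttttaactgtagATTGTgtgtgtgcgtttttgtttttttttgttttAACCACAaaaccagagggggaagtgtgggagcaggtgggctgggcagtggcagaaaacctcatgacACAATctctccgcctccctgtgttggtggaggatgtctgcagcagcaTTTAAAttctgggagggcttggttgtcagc
In the sequence of SOX4 (chr6:21593501-21593750, plus strand), capitals mark CCAAT at −114 to −110 and, on the other strand, at −181, −57 and −10, while a TTTAAA at −202 is left in lower case.
SOX4: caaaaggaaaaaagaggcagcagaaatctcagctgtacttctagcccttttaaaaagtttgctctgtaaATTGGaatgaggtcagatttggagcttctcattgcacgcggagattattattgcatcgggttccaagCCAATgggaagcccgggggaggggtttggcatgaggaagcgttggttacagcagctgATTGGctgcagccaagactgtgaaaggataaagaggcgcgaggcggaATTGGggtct
Both strands were searched. Of 35116 promoter windows of the same length, 3.65% held AACCACA, 11.3% held TTTAAA, 24.6% held ACAAT and 32.0% held CCAAT. These matches describe letters in the sequence and do not show that a factor binds there.

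Osteopontin is read by CD44 and by integrins that contain the chains encoded by ITGAV, ITGB1, ITGB3, ITGB5, ITGB6, ITGA4, ITGA5, ITGA8 and ITGA9. Of these 10 receptor genes, 8 were tested, and 3 were higher and 3 were lower, against 26.8% of all tested genes in each direction. Their median log2 fold change was 0.07. CD44 (1.67), ITGB6 (1.43) and ITGAV (0.30) were higher. ITGB6 was rare, at 28.9 ± 7.96 and 77.9 ± 7.96 normalized reads (SD, n = 3 each; edgeR adjusted p = 1.14e-05). ITGA5 fell from 1941 ± 15.6 to 1170 ± 8.28 normalized reads on average (SD, n = 3 each), which is a log2 fold change of −0.73, and ITGB5 fell by 0.25. ITGB1, the shared β1 chain, was called lower by a small amount (−0.09, edgeR adjusted p = 0.0335). That call was lost with scaling to library size alone and without replicate 1 or 2 of control or replicate 2 or 3 of PELP1-KD, with an adjusted p of up to 0.186. The receptor genes for the ligand thus went both ways, and the list's median ranged from −0.01 to 0.15 with each library left out in turn.

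SOX4, a transcription factor of progenitor and tumor cells, is a gene of a single exon on chromosome 6 from 21593972 to 21598849. It had 13007, 12713 and 12715 normalized reads in the 3 controls, against 14026, 14111 and 14259 under the PELP1-KD label. The difference was small but did not overlap, with a log2 fold change of 0.14 (SE 0.03; 95% confidence limits 0.08 and 0.21; edgeR adjusted p = 0.000603). SOX9, the transcription factor that marks ductal plate and biliary cells, lies on chromosome 17 from 70117161 to 70122560. Its values overlapped, at 4601, 4634 and 4803 normalized reads in the 3 controls, against 4590, 4614 and 4475 under the PELP1-KD label. The log2 fold change of SOX9 was −0.04 (SE 0.04; 95% confidence limits −0.12 and 0.04; edgeR adjusted p = 0.414), which leaves room for a change of up to 0.12 on the log2 scale downward and 0.04 upward.

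Among the other SOX genes, 17 in the tables, 7 were tested and 5 were lower, against 26.8% of all tested genes called lower. The 7 had a median log2 fold change of −0.26. SOX13 fell from 1267 ± 47.5 to 729 ± 39.7 normalized reads on average (SD, n = 3 each), which is a log2 fold change of −0.80 (SE 0.06, edgeR adjusted p = 4.19e-10). SOX18 and SOX6 fell by 0.73 and 0.26 on the log2 scale. The rise of SOX4 stood beside lower values for these 3 relatives.

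PROM1 encodes prominin-1, a membrane glycoprotein of stem and progenitor cells, and lies on chromosome 4 from 15969849 to 16085623 on the minus strand with 29 exons. It had 5265, 5327 and 5221 normalized reads in the 3 controls, against 5211, 4985 and 4990 under the PELP1-KD label. The lowest control value lay just above the highest of the other group, and the log2 fold change of −0.06 was not called (SE 0.04; 95% confidence limits −0.13 and 0.02; edgeR adjusted p = 0.188). With the replicate block the adjusted p was 0.0571.

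CD24 encodes a small glycoprotein anchored in the membrane by lipid. The annotation of the deposited tables places it on chromosome Y of hg19, from 21152526 to 21154705 as a single exon, whereas RefSeq places CD24 of GRCh38.p14 on chromosome 6. Its counts are thus reads that matched the Y sequence, which has 1 other locus at 90% identity on chromosome 15, and its level is uncertain. CD24 had 19465, 19429 and 18632 normalized reads in the 3 controls, against 18533, 17981 and 16940 under the PELP1-KD label. The groups were separated by a narrow gap, and the log2 fold change was −0.11 (SE 0.03; 95% confidence limits −0.18 and −0.03; edgeR adjusted p = 0.0152). The call was lost without replicate 1 of control (−0.09, adjusted p = 0.0841) and without replicate 2 of control (−0.10, adjusted p = 0.0739).

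Other genes of the biliary epithelium were counted as a list of 15, of which 12 were tested. Of these, 7 were higher and 2 were lower, against 26.8% of all tested genes in each direction. The median log2 fold change of the 12 was 0.24, and DESeq2 called 5 higher. Of the 7, ONECUT2 (edgeR adjusted p = 0.0453) lost its call with DESeq2, under 3 other settings and in each fit without 1 library except that without replicate 3 of PELP1-KD, and CLDN4 (edgeR adjusted p = 0.027) lost it with DESeq2 and without replicate 2 of control or replicate 1 of PELP1-KD. SLC4A2, the anion exchanger of cholangiocytes, rose from 13479 ± 256 to 16022 ± 797 normalized reads on average (SD, n = 3 each), which is a log2 fold change of 0.25 (SE 0.04, edgeR adjusted p = 7.68e-06). ELF3, an epithelial transcription factor, rose by 0.23 on the log2 scale (edgeR adjusted p = 3.79e-05). Of the lower genes, PKHD1, which encodes the ciliary protein fibrocystin, fell from 56.4 ± 10.8 to 14.7 ± 3.85 normalized reads on average (SD, n = 3 each), which is a log2 fold change of −1.95. FXYD2, a regulatory subunit of the sodium pump, was counted 129 times over all controls but 3 times over the PELP1-KD libraries, which gives a ratio of 0.0264 (exact binomial 95% limits 0.00538 and 0.0789) for counting error. CFTR, the chloride channel of the duct, named after its values were seen, was also rare but rose, with 23.9 ± 1.94 and 53.0 ± 10.5 normalized reads (SD, n = 3 each; log2 fold change 1.15, edgeR adjusted p = 0.000283).

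A list of 16 other progenitor or oncofetal genes had 13 tested members. Of these, 3 were higher and 7 were lower, against 26.8% of all tested genes in each direction. Their median log2 fold change was −0.16. AFP, the fetal serum protein α-fetoprotein, rose from 141438 ± 4100 to 218061 ± 6819 normalized reads on average (SD, n = 3 each), which is a log2 fold change of 0.62 (SE 0.03, edgeR adjusted p = 5.85e-13). CD44 was higher as given above. ICAM1 was called higher by a small amount (0.08, edgeR adjusted p = 0.0481), and this was lost with DESeq2 (adjusted p = 0.08), under 3 other settings of scaling or filtering, and without replicate 1 or 2 of control or replicate 2 or 3 of PELP1-KD, with an adjusted p of up to 0.157. DLK1, a surface protein of hepatoblasts, fell to near 0 (log2 fold change −8.69). ALCAM fell by 0.57 and the fetal liver proteoglycan gene GPC3 by 0.24 on the log2 scale. AFP and DLK1, which both mark hepatoblasts, thus went opposite ways. Of the 8 hepatocyte markers, 6 were lower and 2 were higher, against 26.8% of all tested genes in each direction. Their summed level was between 23170 and 23470 CPM (counts scaled to equal library totals) in the controls. It was between 17720 and 18050 CPM under the PELP1-KD label. ALB fell by 0.61 on the log2 scale, and HNF4A, a transcription factor of hepatocytes, rose by 0.23.

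Notch signaling from JAG1 to NOTCH2 directs hepatoblasts to the biliary fate, with SOX9 and HES1 among its targets. Of 22 Notch pathway genes, 19 were tested, and 4 were higher and 4 were lower, against 26.8% of all tested genes in each direction. The list had a median log2 fold change of −0.02. With the replicate block, 7 were called higher and 5 lower, and the median ranged from −0.02 to 0.08 over the alternative settings. NOTCH1 fell from 1044 ± 19.7 to 443 ± 41.4 normalized reads on average (SD, n = 3 each), which is a log2 fold change of −1.23 (SE 0.07, edgeR adjusted p = 5.80e-12). The ligand gene JAG1 fell by 0.38 and LFNG, whose product modifies Notch receptors, by 1.22. NOTCH2, the main receptor in liver progenitors, rose from 2710 ± 85.1 to 3275 ± 89.3 normalized reads on average (SD, n = 3 each), which is a log2 fold change of 0.27 (edgeR adjusted p = 1.41e-05). MFNG and NUMB rose by 0.63 and 0.16. The target genes HES1 (−0.08, edgeR adjusted p = 0.23) and HES4 (−0.02, edgeR adjusted p = 0.838), were not called. HEYL, another target, was higher (0.51, edgeR adjusted p = 0.00483), and HEY2, too low to be tested, had 2, 2 and 1 reads in the controls, against 8, 12 and 17 under the PELP1-KD label. NRARP, a target that also restrains the pathway, was called lower (−0.28, edgeR adjusted p = 0.0229). That call was lost with DESeq2 and without replicate 1 or 2 of control or replicate 2 of PELP1-KD, with an adjusted p of up to 0.163. The target HEY1 was not called (0.29, edgeR adjusted p = 0.0793). It was called higher with the replicate block (edgeR adjusted p = 0.0467) and without replicate 3 of PELP1-KD (edgeR adjusted p = 0.0108). These target genes were chosen after their values were seen.

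Markers of other cell types moved between the groups as well. The summed level of 6 stromal markers was between 17.9 and 19.8 CPM in the control libraries and between 28.9 and 31.6 in those labelled PELP1-KD. Of its members, COL1A1 and LUM were higher, PDGFRB was lower, COL3A1 was not called, and DCN and ACTA2 had too few reads to be tested. The sum of 4 immune markers was between 46.2 and 51.9 and between 62.7 and 66.4 CPM, most of it CD68, which was higher. CD14 was lower (log2 fold change −0.98, edgeR adjusted p = 3.31e-06), and PTPRC and CD3E were near 0. The sum of 3 endothelial markers was between 1.94 and 2.31 CPM over all libraries. The part of these genes in the changes of the 10 markers was not tested.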

How the data were processed

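RNA-seq of 3 control and 3 PELP1-KD libraries of Hep3B cells was used. The authors deposited estimated counts per gene, made with featureCounts 1.5.0-p1 on UCSC hg19 gene models per the file headers, with reads that match several places or genes shared as fractions, a minimum mapping quality of 2 and strand-specific counting. The labels and the study's methods differ on RNA extraction, library kit, read layout, aligner and counter, so those steps cannot be stated with certainty. The counts were rounded to whole numbers, and normalized reads are counts scaled by TMM library sizes. Genes were tested with edgeR 4.0.16 in R 4.3.3 (filterByExpr, robust quasi-likelihood fit, Benjamini-Hochberg adjustment over 14537 genes), with intervals on 19.1 degrees of freedom for most genes, after the fit was tested on simulated data. The median standard error of a log2 fold change was 0.0632. Groups and replicate numbers came from the sample titles.

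The 10 genes and the lists beside them were chosen with earlier results of these data known. Named genes were all members, PELP1 and, from each list, the 3 called genes with the smallest p in each direction (any tested gene for EPCAM partners and osteopontin receptors). KRT10, FAM83H, CFTR, SCTR, ONECUT2, CLDN4, the Notch target genes and the single hepatocyte, stromal, immune and endothelial markers were named after their values were seen. Same-numbered libraries deviated together (r = 0.336, 0.247 and 0.666 over 6370 genes), all above a threshold of 0.1. The replicate number was therefore entered as a block in an alternative fit, while the main fit had no block. Only replicate 3 was set apart, since control 2 with PELP1-KD 1 (r = 0.418) and control 1 with PELP1-KD 2 (r = 0.244) deviated together as well. Alternatives were DESeq2 1.42.0, other scalings and filters, unrounded counts, the replicate block and each library left out. Copies of the genes were searched in GRCh37 with BLAST 2.17.0. The ratio of KRT19 to KRT18 was added after the data were seen. Some genes of the lists are counted but not reported singly here.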

Additional observations from a re-analysis of the deposited data

How the results depend on the processing

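All 6 markers called higher kept their direction and call in each of the 14 alternatives, with log2 fold changes of 0.30 to 0.36 for KRT8, 0.34 to 0.40 for KRT18, 0.86 to 0.93 for KRT19, 0.25 to 0.30 for EPCAM, 0.14 to 0.16 for SOX4 and 1.03 to 1.12 for SPP1. With each library left out in turn, 0 to 1 markers were called lower and 1 to 2 were past 2-fold. CD24 lost its call without replicate 1 or replicate 2 of control. KRT7 entered the test, and made 2 markers past 2-fold, with no filter on low counts and without replicate 1 of either group. With the replicate block, 6 markers were called higher and 1 lower, 8828 genes were called against 7788, and no call of a marker changed. At least 10 reads in every library left 742 genes past 2-fold against 1112, as fewer genes were tested. The shift of type II to type I keratins ranged from −0.14 to −0.13 with each library left out. Of the other scalings, library size alone moved the median of all genes most, to 0.021. Depth limited KRT7, with at most 12 reads in a library.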

Other observations

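Among the other keratins, KRT78 was counted 56, 1 and 69 times in the controls, against 76, 46 and 79 times under the PELP1-KD label. KRT3 was counted 23, 0 and 39 times in the controls, against 24, 14 and 59 times. Replicate 2 of control was the low library for both, and edgeR called neither gene (adjusted p = 0.474 for KRT78 and 0.569 for KRT3). These 2 genes were chosen after their values were seen.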
